A study of Homo sapiens with 10 samples.

Results

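The genes described here were the 9 human DNA glycosylases other than OGG1 and MUTYH, namely NTHL1, NEIL1, NEIL2, NEIL3, UNG, SMUG1, TDG, MBD4 and MPG. They were chosen by name as rows of the gene count tables, not by their values, and made up 9 of 59453 genes. All 9 were found in both tables and all passed the filter on low counts. RNA-seq had been made from HAP1, a near-haploid human cell line derived from the leukaemia line KBM-7, in 10 libraries. Each of the genotypes WT, MUTYH-/, OGG1-/ and MUTYH-/ X OGG1-/ (double knockout, DKO) gave 2 untreated libraries, each from a different clone. WT clones 2 and 11 were also sampled 24 hours after treatment with 100 µM H2O2, which gave the other 2 libraries. All cells were grown in IMDM with serum and antibiotics at atmospheric oxygen, and an antioxidant and an iron chelator were added while RNA was isolated. The knockouts were made with CRISPR-Cas9, by small insertions or deletions, and per the methods both DKO clones were derived from the same OGG1 knockout clone. The clones are therefore the replicates, with 1 library each, and knockout clones of OGG1 and DKO were not independent lines. The question asked here was whether any of the 9 other glycosylases was raised when OGG1 or MUTYH was missing, or after H2O2.

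DNA glycosylases start base excision repair. Each recognises a set of damaged or mispaired bases and cuts the base from its sugar, after which an endonuclease, a polymerase and a ligase restore the strand. OGG1 removes 8-oxoguanine paired with cytosine and MUTYH removes adenine paired with 8-oxoguanine. NTHL1, NEIL1, NEIL2 and NEIL3 remove oxidised bases, mainly pyrimidines and further oxidation products of guanine, and their substrates overlap. UNG and SMUG1 remove uracil, TDG and MBD4 remove thymine or uracil paired with guanine, and MPG removes alkylated purines and hypoxanthine. Transcription of UNG and NEIL3 is known to follow the cell cycle.

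Of the 9 genes, 7 had a promoter window in the RefSeq table for GRCh38.p14, with 10 windows in all, and NEIL2 and SMUG1 had none there. A window holds 250 bases before the transcript start and 50 from it on. Windows of 3 genes, chosen after their values were seen, are shown. The treated and untreated WT libraries did not overlap for these genes, and 2 of them, UNG and NEIL3, follow the cell cycle. NTHL1 and MPG also did not overlap, and their windows are not shown. Capitals mark matches, on either strand, to the E2F forms TTGGCGC and TTCGCGC, the CHR element TTTGAA and the CCAAT box.
NEIL1 promoter, chr15:75346789-75347088, plus strand: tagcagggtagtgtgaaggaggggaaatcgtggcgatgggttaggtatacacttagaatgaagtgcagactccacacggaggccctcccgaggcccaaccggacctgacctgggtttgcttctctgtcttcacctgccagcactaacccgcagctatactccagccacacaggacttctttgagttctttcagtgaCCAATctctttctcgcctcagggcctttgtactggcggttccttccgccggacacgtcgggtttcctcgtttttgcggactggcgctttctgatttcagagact
UNG promoter, chr12:109097347-109097646, plus strand: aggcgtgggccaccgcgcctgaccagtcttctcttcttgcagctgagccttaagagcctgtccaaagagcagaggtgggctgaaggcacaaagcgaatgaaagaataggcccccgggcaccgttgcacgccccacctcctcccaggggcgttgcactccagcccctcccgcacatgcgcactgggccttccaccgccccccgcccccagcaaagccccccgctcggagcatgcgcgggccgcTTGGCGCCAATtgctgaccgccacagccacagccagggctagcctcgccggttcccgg
NEIL3 promoter, chr4:177309624-177309923, plus strand: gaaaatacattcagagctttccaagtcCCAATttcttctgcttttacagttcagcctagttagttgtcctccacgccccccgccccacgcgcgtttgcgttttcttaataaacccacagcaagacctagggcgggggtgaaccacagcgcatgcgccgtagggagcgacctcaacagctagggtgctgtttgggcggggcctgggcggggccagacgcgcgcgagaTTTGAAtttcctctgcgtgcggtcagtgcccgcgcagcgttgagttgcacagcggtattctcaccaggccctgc

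In these windows, with the start site as position 0, UNG held the first E2F form on both strands, at positions -8 and -5, overlapping a CCAAT box at -2. NEIL3 held a CHR match at -24 and a CCAAT box at -223. The NEIL1 window, 1 of 3 for that gene, held a CCAAT box at -54 and no match to the other letters searched. Among all 35116 windows of the table, 3.04% held the first E2F form, 2.24% the second, 15.2% the CHR letters and 34.6% a CCAAT box. Of the windows not shown, the other UNG window and the TDG window each held 1 match to the first E2F form. Those of NTHL1 and MPG held no E2F or CHR match. A match is a run of letters and says nothing on whether a factor was bound.

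The targeted genes were read first. OGG1 stood at 12.2 and 13.1 CPM (counts scaled to library size, TMM-normalised) in WT clones 2 and 11, and at 1.22 in OGG1 knockout clone 1. OGG1 knockout clone 22 stood at 11.3 CPM and DKO clones 4 and 14 at 9.63 and 9.83. The OGG1 transcript was thus near the WT level in 3 of the 4 clones labelled as lacking OGG1, among them both DKO clones, which share a parent clone. The paper's supplement gives that parent as the OGG1 clone with a product number ending in 22, and lists the same deletion length for all 3. By this number the parent is OGG1 knockout clone 22, so these 3 clones are not separate lines. Since a small deletion need not lower a transcript, its level does not check their labels. MUTYH was counted at 3.94 to 4.66 CPM in WT, 3.68 to 4.66 CPM in the MUTYH knockout and 2.21 to 4.75 CPM in DKO, and likewise does not check those labels. The paper reports a protein check of every clone by targeted mass spectrometry, which verified the knockouts. Total counts ranged from 22225091 to 22674964, and 1 CPM rested on 22.2 counts in the smallest library. The 9 glycosylases were each supported by 222 to 3618 counts in a library. As a check of the line, leukocyte markers were near 0: MPO was at 0 in all 10 libraries, SPI1 in 9 and PTPRC in 6, and CD33, GATA1 and CD34 reached at most 1.03 CPM. Of the epithelial markers KRT8 and KRT18 stood at 8.47 to 54.1 CPM, with EPCAM and CDH1 at most 2.96, and of the mesenchymal ones VIM, COL1A1 and FN1 stood at 15.6 to 498.1 CPM and COL1A2 at most 1.02. The blood sum was 0.277 to 1.48 CPM over all libraries. The untreated libraries also split into sides that cross the genotypes: side A held clone 2 of WT, clone 8 of the MUTYH knockout, clone 22 of the OGG1 knockout and clone 14 of DKO, and side B the other clone of each genotype. That split, for which the labels give no reason, carried 49.9% of the variance left after the genotype means were removed.

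Levels of the 9 genes were ordered per length, as RPKM, the CPM divided by exon length in kb. TDG was highest, with a mean of 24.9 RPKM over the 8 untreated libraries (21.8 to 29.2). UNG (15.9) and MPG (15.8) came next and did not differ beyond their ranges. NTHL1 (10.3), MBD4 (10.1), NEIL3 (8.53), NEIL1 (7.04) and NEIL2 (4.77) followed, each overlapping its neighbour in this order. SMUG1 was lowest, at 2.17 RPKM (1.65 to 2.85), and was below NEIL2 in all 8 libraries without overlap. The ranges of TDG and UNG, and those of MPG and NTHL1, also did not overlap. Thus enzymes for uracil and thymine held both the highest and the lowest place, and in this order the 4 enzymes for oxidised bases lay between MPG and SMUG1. Their place below MPG depends on the length used, the union of all annotated exons (1497 bases for MPG and 6939 for NEIL1). By median CPM over the untreated libraries NEIL1 (47.6), NTHL1 (26.1) and NEIL3 (24.7) were above MPG (23.5), and NEIL2 (15.9) was below it.

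Exons of 5 genes overlap another annotated gene, which bears on their counts because no strand setting is given in the sources used here. NEIL1, on the plus strand of GRCh38 (chr15:75346955-75357115), shares 26.4% of its exonic bases with MAN2C1, an alpha-mannosidase gene on the opposite strand, and MPG (chr16:77007-85851, plus strand) shares 30.1% with NPRL3. MBD4 (chr3:129430947-129440179, minus strand) shares 8.32% with IFT122, TDG (chr12:103965822-103988874, plus strand) 3.44% with a non-coding gene that was not in the count tables, and SMUG1 (chr12:54121277-54189008, minus strand) 2.97% with FAM242C and FLJ12825, which had 0 to 4 counts in a library. NTHL1 (chr16:2039815-2047866, minus strand), NEIL2 (chr8:11769639-11787345, plus strand), NEIL3 (chr4:177309874-177362936, plus strand) and UNG (chr12:109097597-109126725, plus strand) share none. The pseudogene TDGP1 had 2 to 8 counts in a library, and UNGP1, UNGP3 and SMUG1P1 had at most 1.

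**Figure D1:**
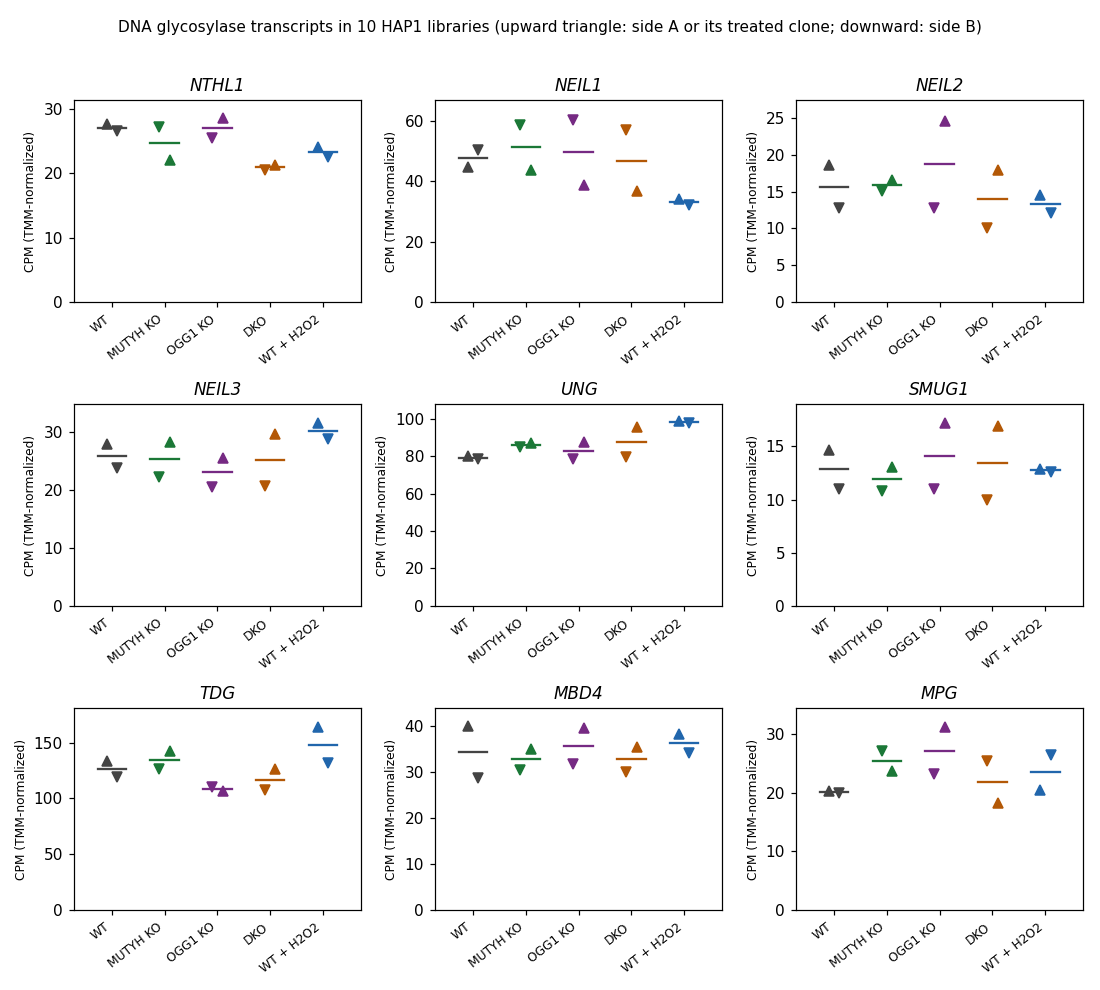
CPM (TMM-normalised) of the 9 DNA glycosylase transcripts in each of the 10 HAP1 libraries, by group; each point is 1 clone and the bar is the mean of the 2 clones. Upward triangles are side A clones, or the treated library of the side A WT clone, and downward triangles side B. The 2 clones of a genotype could lie far apart, as for NEIL1, which was at 38.8 and 60.5 CPM in the OGG1 knockout.

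None of the 9 glycosylases was differentially expressed when MUTYH, OGG1 or both were missing. By the criterion of the study, an unadjusted edgeR P of at most 0.05 with a log2 fold change beyond 1, the count was 0 of 9 in the MUTYH knockout, beside 1.19% of the 17881 genes tested, 0 of 9 in the OGG1 knockout (1.67% of all genes) and 0 of 9 in DKO (1.77%). At an unadjusted edgeR P of at most 0.05 with no limit on size, the count was also 0 of 9 in each, beside 1.72%, 2.74% and 2.94% of all genes. After Benjamini-Hochberg adjustment over all genes the edgeR fit called 1 gene in the MUTYH knockout (0.00559%), 0 in the OGG1 knockout and 0 in DKO, none of them a glycosylase studied here. With a share of called genes this low, 9 genes would hold few calls in any case. The 3 knockouts were set against the same 2 WT libraries.

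The intervals bound the size of a rise that these libraries could have missed. In the MUTYH knockout the log2 fold changes lay between -0.14 (NTHL1) and 0.34 (MPG), with a median of 0.012 beside 0.013 over all genes, and the upper limits of the 95% intervals stayed under 2-fold for all 9 genes (highest 0.91 on the log2 scale, for NEIL2). In the OGG1 knockout they lay between -0.22 (TDG) and 0.44 (MPG), with a median of 0.063 beside 0.015, and NEIL2 alone had an upper limit over 2-fold (1.15 on the log2 scale). In DKO they lay between -0.37 (NTHL1) and 0.15 (UNG), with a median of -0.041 beside 0.001, and all upper limits stayed under 2-fold (highest 0.83, for SMUG1). The limits differed between genes with the spread of their clones, and were lowest for TDG in the OGG1 knockout (0.12) and for NTHL1 in the MUTYH knockout (0.26) and DKO (0.024).

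**Figure D2:**
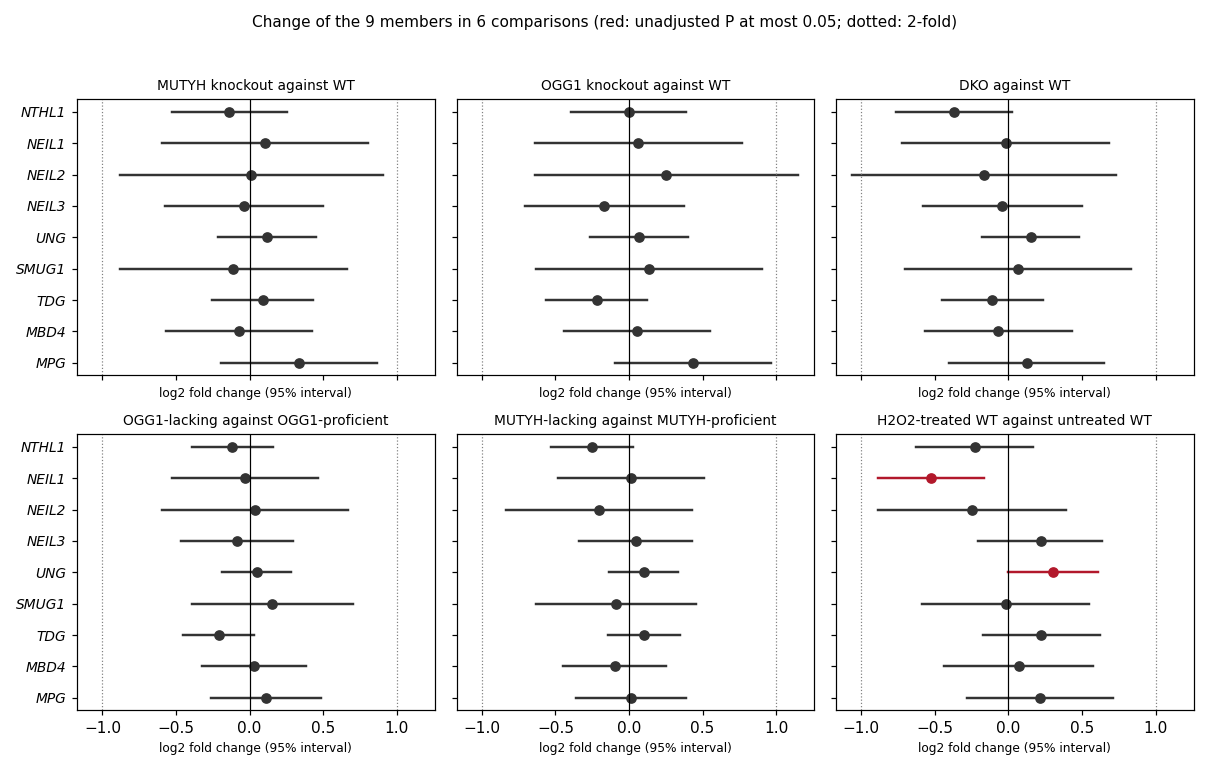
Log2 fold changes (points) with 95% intervals (lines) of the 9 glycosylases in 6 comparisons, from edgeR. Dotted lines mark a change of 2-fold, and red marks an unadjusted P of at most 0.05, reached by NEIL1 (-0.53) and UNG (0.30) after H2O2 and by no gene between genotypes.

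The 4 enzymes for oxidised bases had log2 fold changes in DKO of -0.37 (NTHL1), -0.17 (NEIL2), -0.041 (NEIL3) and -0.018 (NEIL1), of which none passed the test. NTHL1 was counted at 27.7 (clone 2) and 26.6 CPM (clone 11) in WT, 27.3 (clone 7) and 22.2 (clone 8) in the MUTYH knockout, 25.6 (clone 1) and 28.6 (clone 22) in the OGG1 knockout, and 20.6 (clone 4) and 21.4 (clone 14) in DKO. Both DKO libraries were below all 6 others, without overlap. NTHL1 was the only 1 of 9 genes that lay lower in DKO than in WT without overlap, which 12.6% of all genes did, and 0 of 9 lay higher, beside 13.1%. The log2 fold change was -0.37 ± 0.17 (SE; unadjusted edgeR P of 0.0619, adjusted p = 1). With the library side as a block it was the same size with an unadjusted P of 0.0362 (edgeR, adjusted p = 0.651), a level that 7.32% of all genes reached in that fit. The sides were taken from the spread of these same libraries around their genotype means. A fit with that block leaves less spread by construction, so its P values are descriptive here and below.

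NEIL1, NEIL2 and NEIL3 overlapped WT in each knockout. NEIL1 was at 44.7 and 50.6 CPM in WT, 58.7 and 43.8 in the MUTYH knockout, 60.5 and 38.8 in the OGG1 knockout and 56.9 and 36.8 in DKO, in the clone order given above. Its highest and lowest untreated libraries thus both lacked OGG1. NEIL2 was at 18.6 and 12.8 CPM in WT, 15.1 and 16.6 in the MUTYH knockout, 12.8 and 24.6 in the OGG1 knockout and 10.1 and 17.9 in DKO. The spread of NEIL2 was the widest of the 9, 2.45-fold from the lowest to the highest untreated library, and each knockout overlapped WT. NEIL3 stayed between 20.6 and 29.7 CPM in all 8, with groups that overlapped throughout.

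No enzyme for uracil or thymine passed the test in any knockout. TDG was at 133.4 and 119.2 CPM in WT, 126.7 and 142.7 in the MUTYH knockout, 110.3 and 106.3 in the OGG1 knockout and 107.5 and 126.1 in DKO. The OGG1 knockout libraries were below both WT libraries, with a log2 fold change of -0.22 ± 0.15 (unadjusted edgeR P of 0.175). It was 1 of 9 genes lower without overlap in the OGG1 knockout, beside 12.2% of all genes, and MPG was the 1 of 9 that was higher, beside 13.0%. UNG was at 80.1 and 78.3 CPM in WT and at 85.2 and 87.2 in the MUTYH knockout, so that these groups did not overlap, with a log2 fold change of 0.12 ± 0.14 (unadjusted edgeR P of 0.429). UNG varied least of the 9, 1.22-fold over the 8 untreated libraries, and overlapped WT in the OGG1 knockout (78.3 and 87.5 CPM) and in DKO (79.7 and 95.9 CPM). SMUG1 (9.94 to 17.2 CPM) and MBD4 (28.7 to 40.0 CPM) overlapped WT in each knockout.

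MPG, the enzyme for alkylated purines, was higher than WT in both single knockouts without overlap. It was at 20.3 and 19.9 CPM in WT, 27.1 and 23.8 in the MUTYH knockout, 23.2 and 31.2 in the OGG1 knockout and 25.3 and 18.3 in DKO. With UNG it made 2 of 9 genes higher in the MUTYH knockout without overlap, beside 11.8% of all genes, and 0 of 9 were lower, beside 9.78%. The log2 fold change of MPG was 0.34 ± 0.23 in the MUTYH knockout (unadjusted edgeR P of 0.178) and 0.44 ± 0.23 in the OGG1 knockout (unadjusted edgeR P of 0.0933, adjusted p = 0.999). Without OGG1 knockout clone 1 the latter was 0.62 with an unadjusted P of 0.0452 (edgeR), and without clone 22 it was 0.21 with an unadjusted P of 0.435. The DKO libraries lay on either side of WT, and the change with MUTYH loss differed between OGG1-deficient and OGG1-proficient cells by -0.65 ± 0.32 on the log2 scale (interaction in edgeR, unadjusted P of 0.0797, adjusted p = 1). NPRL3, which shares exonic bases with MPG, had log2 fold changes of -0.058 in both single knockouts and -0.34 in DKO. DKO clone 14 was the lowest untreated library for both genes (47.7 CPM for NPRL3), and the part of NPRL3 in the MPG counts was not tested.

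With 4 libraries a side, all clones lacking OGG1 were set against all others, and likewise for MUTYH. Both DKO clones derive from the same OGG1 knockout clone, so the 4 OGG1-lacking libraries are not 4 independent lines. The fit treats them as independent, which bears on its P values and intervals. The criterion of the study again held for 0 of 9 glycosylases without OGG1 (1.57% of all genes) and for 0 of 9 without MUTYH (0.721%). An unadjusted edgeR P of at most 0.05 was reached by 0 of 9 in either, beside 3.79% and 1.62% of all genes, and after adjustment the edgeR fit called 1 gene (0.00559%) and 0 genes, no glycosylase among them. TDG was at 106.3 to 126.1 CPM in the 4 OGG1-lacking libraries and at 119.2 to 142.7 CPM in the others, which overlapped through DKO clone 14 (-0.21 ± 0.10, unadjusted edgeR P of 0.0805). With the library side, taken from these same libraries, as a block TDG had an unadjusted P of 0.0189 (edgeR, adjusted p = 0.479). It was the 1 of 9 genes at that level, beside 9.41% of all. The summed level of the 4 epithelial markers, which was not tested, did not overlap in the untreated libraries. It stood at 71.3 to 101 CPM in the OGG1-lacking libraries and 36.3 to 68.4 CPM in the others. KRT8 and KRT18 made up nearly all of it, with EPCAM at most 2.96 CPM and CDH1 at most 0.0888. H2O2-treated WT clone 11, which has OGG1, stood at 73.4 CPM. The blood sum, near 0 throughout, separated as well (0.678 to 1.48 and 0.277 to 0.577 CPM), and the mesenchymal sum overlapped. The share of all genes that separated in this way was not counted, and the part of these levels in the TDG values was not tested. NTHL1 was at 20.6 to 27.3 CPM in the 4 MUTYH-lacking libraries and at 25.6 to 28.6 in the others (-0.25 ± 0.12, unadjusted edgeR P of 0.069), and the groups overlapped through MUTYH knockout clone 7. With the block NTHL1 had an unadjusted P of 0.0405 (edgeR, adjusted p = 0.912), again 1 of 9 beside 5.00% of all genes, and without MUTYH knockout clone 7 the change was -0.34 with an unadjusted P of 0.0449 (edgeR). The upper limits of the 95% intervals were all under 2-fold, at most 0.70 on the log2 scale without OGG1 (SMUG1) and 0.51 without MUTYH (NEIL1).

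After H2O2 none of the 9 glycosylases met the criterion of the study either, but NEIL1 was lower and UNG higher than in untreated WT in both clones. NEIL1 was at 44.7 CPM in clone 2 and 50.6 in clone 11 before treatment and at 34.0 and 32.3 after it. Both treated values were also below those of all 8 untreated libraries. The log2 fold change was -0.53 ± 0.15 (95% interval -0.89 to -0.17), with an unadjusted edgeR P of 0.0119 and an adjusted p of 0.638. With the clones paired as a block it was -0.53, with an unadjusted P of 0.00167 and an adjusted p of 0.0568 (edgeR). With all 10 libraries in the fit the unadjusted edgeR P was 0.0901, or 0.11 with the WT clones as a block as well, and it was above 0.05 in 3 of the 4 fits that left out 1 library (0.0565 to 0.0869), all but the one without untreated WT clone 2. MAN2C1, the gene on the opposite strand that shares exons with NEIL1, moved the same way, from 92.1 and 102.2 CPM to 78.9 and 64.4 (-0.45 ± 0.16, unadjusted edgeR P of 0.0312, adjusted p = 0.638), and its part in the NEIL1 counts was not tested. The 33 other tested genes within 1 Mb of NEIL1, a range chosen after the values were seen, had a median log2 fold change of 0.051, and 14 of them were below 0.

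UNG was at 80.1 and 78.3 CPM before treatment and at 98.7 and 97.7 after it, in clones 2 and 11. Both treated values were above those of all 8 untreated libraries, of which the highest was 95.9 CPM in DKO clone 14. The log2 fold change was 0.30 ± 0.12 (95% interval 0 to 0.61), with an unadjusted edgeR P of 0.0498 and an adjusted p of 0.638. With the clones as a block it was 0.30 with an unadjusted P of 0.0275 and an adjusted p of 0.190 (edgeR). The unadjusted P was 0.0521 with the DESeq2 Wald test, 0.0504 with the edgeR 4 quasi-likelihood test, 0.0586 with at least 10 counts in every library, 0.0598 with all 10 libraries and the WT clones as a block, and 0.109 to 0.183 when 1 library was left out. Within clones the change was 0.30 and 0.32 on the log2 scale.

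**Figure D3:**
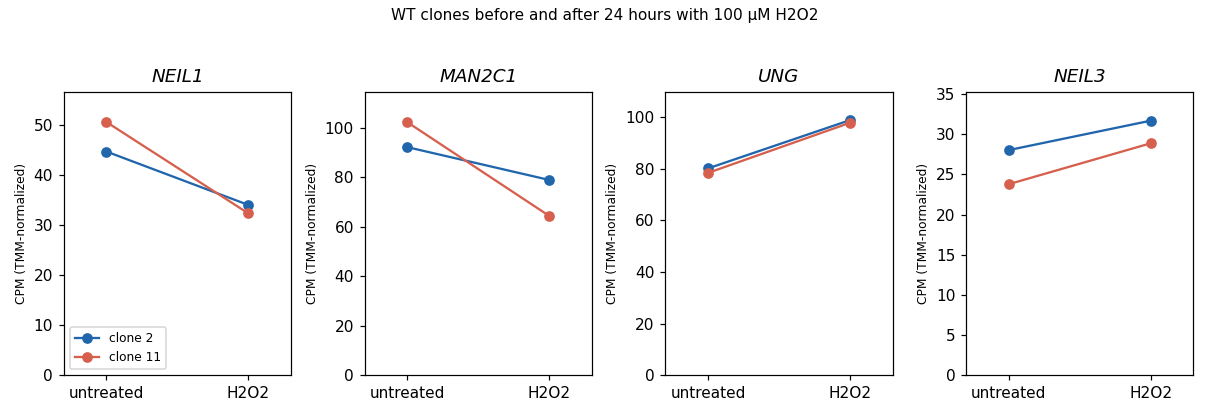
CPM (TMM-normalised) of NEIL1, MAN2C1, UNG and NEIL3 in WT clones 2 and 11 before and 24 hours after 100 µM H2O2; each line joins the 2 libraries of 1 clone and there are no error bars. NEIL1 and MAN2C1 were lower and UNG and NEIL3 higher after treatment in both clones.

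These 2 genes were 2 of 9 at an unadjusted edgeR P of at most 0.05, beside 7.63% of the 16997 genes tested. Under the criterion of the study the count was 0 of 9 beside 1.75%, and after adjustment edgeR called 0 genes of all 16997, against 1297 genes without adjustment. With clone as a block the count was again 2 of 9, beside 20.1% of all genes, and 0 of 9 after adjustment, beside 2.57%. Treated libraries lay above the untreated WT libraries without overlap for NEIL3, UNG and MPG, 3 of 9 beside 21.5% of all genes, and below them for NTHL1 and NEIL1, 2 of 9 beside 20.0%. The median size of the change, regardless of direction, was 0.22 on the log2 scale for the glycosylases and 0.21 for all genes, so that as a group they moved about as much as other transcripts. The upper limits of the intervals were all under 2-fold, at most 0.71 on the log2 scale (MPG).

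The remaining enzymes for oxidised bases did not move together. NTHL1 was at 24.1 and 22.5 CPM after treatment (-0.23 ± 0.16, unadjusted edgeR P of 0.204), below both untreated WT values of 27.7 and 26.6. NEIL2 was at 14.5 and 12.0 CPM (-0.25 ± 0.26, unadjusted edgeR P of 0.37), and overlapped untreated WT. NEIL3 was at 31.7 and 28.9 CPM, above untreated WT at 28.0 and 23.8 (0.22 ± 0.17, unadjusted edgeR P of 0.25). None of these 3 passed the test.

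Nor did the other enzymes for uracil, thymine and alkylated bases pass it. TDG was at 164.5 and 131.7 CPM after treatment, with clone 11 below the untreated value of clone 2 (0.22 ± 0.16, unadjusted edgeR P of 0.217). SMUG1 was at 12.9 and 12.6 CPM (-0.019 ± 0.23) and MBD4 at 38.3 and 34.1 CPM (0.069 ± 0.20), and both overlapped untreated WT. MPG was at 20.5 and 26.5 CPM, so that nearly all of its difference lay in clone 11 (0.41 on the log2 scale, and 0.010 in clone 2). IFT122 and NPRL3, the neighbours of MBD4 and MPG, had log2 fold changes of -0.12 and -0.16.

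Lists of other genes give the setting of these values. Of 17 further base excision repair genes, which act after or beside the glycosylases, 0 met the criterion of the study in any of the 6 comparisons. Of all genes 0.721% to 1.77% met it. FEN1, the flap endonuclease of long-patch repair, alone of the 17 had an unadjusted edgeR P of at most 0.05. It was lower without OGG1, where 3.79% of all genes reached that P. After H2O2, 11 of the 17 had a log2 fold change above 0, with a median of 0.050. Of 12 S phase genes 11 were above 0 after H2O2, with a median of 0.22. An unadjusted edgeR P of at most 0.05 was reached by 3 of them (CDC6, RRM2 and CCNE2), beside 7.63% of all genes. The summed level of these 12 was 2318 and 2296 CPM in untreated WT clones 2 and 11 and 2845 and 2666 CPM after treatment, which is the direction of UNG and NEIL3. Of 12 G2/M genes 8 were above 0 (median 0.11, 0 at that P), and their sum was 3830 and 4394 CPM before and 4307 and 4122 CPM after. Whether cell cycle composition had a part in the UNG and NEIL3 values was not tested. Of 11 tested p53 targets all 11 were above 0 after H2O2, with a median of 1.12. The criterion of the study was met by 5 of them (CDKN1A, SESN2, GADD45A, ZMAT3 and PPM1D), beside 1.75% of all genes. The list was also above 0 in 11 of 11 in DKO (median 0.32) and in 10 of 11 without MUTYH (median 0.26). It was above 0 in 10 of 11 in the MUTYH knockout (median 0.175), 10 of 11 without OGG1 (0.094) and 8 of 11 in the OGG1 knockout (0.042). In each of these comparisons 0 of the list had an unadjusted edgeR P of at most 0.05. With the library side as a block 5 had it in DKO (7.32% of all genes), 5 without MUTYH (5.00%) and 3 without OGG1 (9.41%). Between genotypes the S phase sum stayed within 2156 to 2429 CPM. RRM2 alone of the 12 S phase genes had an unadjusted edgeR P of at most 0.05 there. It was lower without OGG1, a comparison in which 3.79% of all genes reached that P. With the library side as a block 2 of the 12 reached it without OGG1 (9.41% of all genes) and 1 in DKO (7.32%), all lower. In bulk libraries a change in the share of cells that express a gene and a change in RNA per cell cannot be told apart.

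The clones of a genotype differed in 5 of the 9 glycosylases in the same direction in all 4 genotypes and without overlap between the sides. NEIL2 was at 16.6 to 24.6 CPM on side A and 10.1 to 15.1 on side B, a mean difference of 0.61 on the log2 scale. SMUG1 was at 13.1 to 17.2 and 9.94 to 11.02 CPM (0.52), NEIL3 at 25.6 to 29.7 and 20.6 to 23.8 (0.35), and MBD4 at 35.0 to 40.0 and 28.7 to 31.6 (0.31). NEIL1 went the other way, with 36.8 to 44.7 CPM on side A and 50.6 to 60.5 on side B (-0.47). The count was 4 of 9 higher on side A beside 15.4% of all genes, and 1 of 9 lower beside 13.8%. The sides were found in these same libraries, over all genes, so these values are a description with no test. MAN2C1 was lower on side A in all 4 genotypes but overlapped (-0.28). IFT122 was also lower there in all 4 (-0.32), and its ranges nearly met, at most 24.97 CPM on side A and at least 24.98 on side B. MBD4, the opposite-strand neighbour of IFT122, was higher on side A. UNG was higher on side A in 4 of 4 genotypes, TDG and NTHL1 in 3 and MPG in 2, all with overlap.

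**Figure D4:**
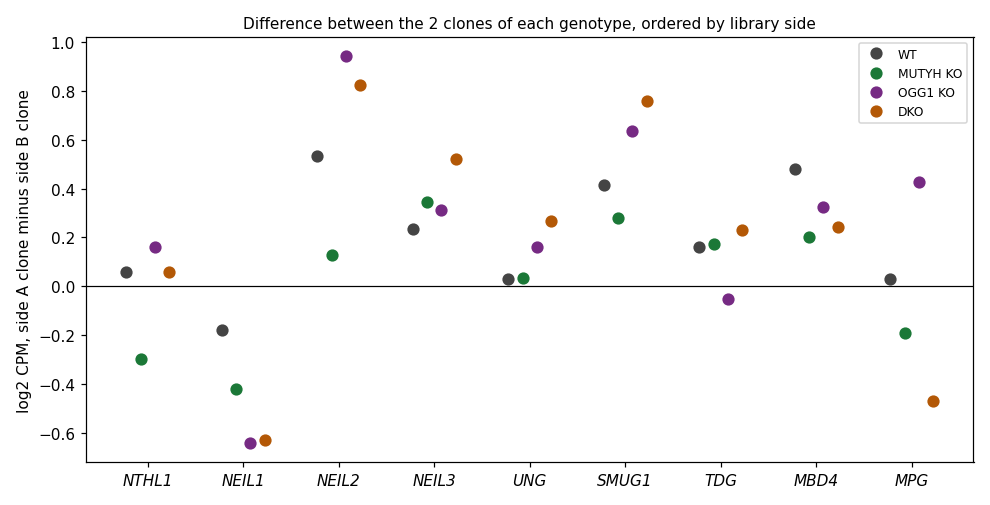
Difference in log2 CPM between the side A clone and the side B clone of each untreated genotype (1 point per genotype, no error bars), for the 9 glycosylases. NEIL2, NEIL3, SMUG1, MBD4 and UNG were above 0 in all 4 genotypes, and NEIL1 below 0 in all 4.

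The clones of a genotype differed by amounts that varied among the 9 genes. The pooled SD of log2 CPM between clones was 0.48 for NEIL2, 0.39 for SMUG1, 0.36 for NEIL1, 0.26 for NEIL3, 0.23 for MPG and for MBD4, 0.12 for NTHL1 and for TDG and 0.11 for UNG. The median SD between clones was 0.23 for the 9 genes, beside 0.29 over all 18124 genes kept by the filter.

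Correlations over the 10 libraries describe the 9 glycosylases further, although the libraries share the sides, the WT clones and the treatment. NEIL1 ran opposite to NEIL3 (Pearson r of log2 CPM = -0.91) and to UNG (-0.86), whereas NEIL2 ran with SMUG1 (0.86) and SMUG1 with MBD4 (0.83). Of 14768 genes searched, the closest in pattern to NEIL1 were AC141557.1 (r = 0.99) and SLFNL1-AS1 (0.98), to NEIL2 KYAT3 and FDFT1 (both 0.97), to NEIL3 DEK (0.99) and MTPN (0.98), and to NTHL1 PAXX (0.92) and CCDC61 (0.91). The closest to UNG were DNAJC8 (0.98) and CXorf56 (0.97), to SMUG1 RPL39P3 (0.98) and SMIM30 (0.98), to TDG CDCA8 (0.99) and RBM8A (0.97), to MBD4 CLPP and TIGD1 (both 0.97), and to MPG MAP2K2 (0.89) and TKT (0.89). FDFT1 lies 8.23 kb from NEIL2 on the same chromosome. The 14 tested genes within 1 Mb of NEIL2 had a median difference of 0.27 on the log2 scale between the sides and the 38 near SMUG1 one of 0.30, in the direction of these genes. The 3 near NEIL3 had one of -0.20, against the direction of NEIL3, and the 19 near MBD4 and the 34 near NEIL1 had 0.024 and 0.006. The 48 near MPG had -0.28 and the 70 near NTHL1 -0.16, although MPG (-0.05) and NTHL1 (-0.005) overlapped between the sides. The 22 near UNG and the 12 near TDG had 0.049 and -0.037.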

How the data were processed

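RNA-seq libraries of 10 HAP1 samples were analysed from deposited tables of read counts per gene. The authors made these whole-number counts by aligning reads to GRCh38 with HISAT2 2.2.1 after FastQC 0.11.9 and counting them against Ensembl release 103 with Rsubread. The submitters' processing notes also name R 4.2.2 and edgeR 3.42.4. The strand setting and the treatment of multiply aligned reads are not given in the sources used here. The 2 untreated WT columns repeated in the treatment table were identical and used once. GENCODE v44 gave positions, overlaps and exonic lengths.

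Genes were tested with edgeR 4.0.16 in R 4.3.3 (TMM factors 0.967 to 1.01, filterByExpr, quasi-likelihood F test with legacy=TRUE, two-sided, Benjamini-Hochberg over all genes). The 8 untreated libraries entered 1 fit (17881 genes), and the 4 WT libraries another (16997 genes). The edgeR fit without a block was tested on simulated data, for the MUTYH knockout and for H2O2. CPM is TMM-normalised, log2 CPM used a prior count of 2, and values after ± are SE. At 1 CPM counting error gives a coefficient of variation of 21.2%, and this covers counting error only, since reads carried no molecular identifiers. Without a block, P values measure the spread between libraries of a group. With 1 library a clone, clone cannot be told apart there from other differences between libraries. With clone as a block, they measure how far the change after H2O2 differed between the WT clones.

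Treated and untreated WT libraries come from the same clones by their numbers. The clone difference correlated across 16997 genes between treated and untreated WT (r = 0.681), and 7 of the 9 glycosylases had the same sign. Treatment was also tested with clone as a block. The library sides were taken from the first component of log2 CPM after removal of genotype means. P values with the side as a block therefore reuse these data and are descriptive.

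Named genes were the 9 glycosylases, the targeted genes, genes with overlapping exons or named as their pseudogenes, the 2 genes closest in pattern to each (mean of at least 1 CPM), and members of the lists that met a call rule. The glycosylases and lists were chosen with earlier results of these data known. Alternatives were DESeq2 size factors, the DESeq2 1.42.0 Wald test, the edgeR 4 quasi-likelihood test, other filters on counts, other sets of libraries, blocks and leaving out each library.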

Additional observations from a re-analysis of the deposited data

How the results depend on the processing

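The count of glycosylases meeting the criterion of the study was 0 of 9 in each of the 6 comparisons under every alternative run. The count at an unadjusted P of at most 0.05 moved in 5 of the comparisons. With the library side as a block it was 1 in DKO (NTHL1), 1 without OGG1 (TDG) and 1 without MUTYH (NTHL1), in place of 0. Leaving out 1 library at a time it was 0 to 1 in the OGG1 knockout (1 without OGG1 knockout clone 1, MPG) and 0 to 1 without MUTYH (1 without MUTYH knockout clone 7, NTHL1). After H2O2 the count of 2 became 1 with the DESeq2 Wald test, with the edgeR 4 quasi-likelihood test and with at least 10 counts in every library (in each NEIL1 remained, with UNG at an unadjusted P of 0.0521, 0.0504 and 0.0586), 1 with all 10 libraries in the fit (UNG, with NEIL1 at an unadjusted P of 0.0901) and 0 to 1 with 1 library left out (1 without untreated WT clone 2, NEIL1). It was 2 with the paired clones as a replicate block in the 4 libraries, and 0 with all 10 libraries and that block (unadjusted P of 0.11 for NEIL1 and 0.0598 for UNG). The clone block changed no other call of the 9 genes. A left-out library leaves 1 clone in its group, which is then assumed to vary like the others. The cause of these moves was not tested.

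Small changes turned direction. NEIL2 was at -0.007 in the MUTYH knockout with at least 10 counts in every library and at -0.013 without OGG1 with the side block, and SMUG1 at 0.002 after H2O2 with all 10 libraries and the clone block. Leaving out 1 library turned the sign of 34 of the 54 log2 fold changes, none of which had passed a test. The lowest and highest values with 1 library left out were, in the MUTYH knockout, -0.31 to 0.012 for NTHL1, -0.13 to 0.31 for NEIL1, -0.23 to 0.30 for NEIL2, -0.21 to 0.11 for NEIL3, -0.30 to 0.11 for SMUG1 and -0.29 to 0.18 for MBD4. In the OGG1 knockout they were -0.078 to 0.066 for NTHL1, -0.31 to 0.35 for NEIL1, -0.29 to 0.64 for NEIL2, -0.008 to 0.13 for UNG, -0.21 to 0.41 for SMUG1 and -0.17 to 0.30 for MBD4. In DKO they were -0.38 to 0.25 for NEIL1, -0.64 to 0.18 for NEIL2, -0.33 to 0.19 for NEIL3, -0.37 to 0.39 for SMUG1, -0.29 to 0.18 for MBD4 and -0.14 to 0.33 for MPG. Without OGG1 they were -0.22 to 0.11 for NEIL1, -0.23 to 0.23 for NEIL2, -0.23 to 0.028 for NEIL3, -0.025 to 0.11 for UNG, -0.065 to 0.32 for SMUG1, -0.081 to 0.15 for MBD4 and -0.023 to 0.21 for MPG. Without MUTYH they were -0.17 to 0.19 for NEIL1, -0.44 to 0.064 for NEIL2, -0.099 to 0.16 for NEIL3, -0.31 to 0.080 for SMUG1, -0.21 to 0.029 for MBD4 and -0.12 to 0.12 for MPG. After H2O2 they were -0.49 to 0.038 for NEIL2, -0.21 to 0.20 for SMUG1 and -0.15 to 0.32 for MBD4. With 2 clones a group and 1 library a clone, the intervals between genotypes were widest for NEIL2, SMUG1 and NEIL1, whose untreated clones differed most.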
